A study of Schizosaccharomyces pombe with 8 samples.

Results

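Wild-type fission yeast (Schizosaccharomyces pombe) was compared with itself: RNA recovered from polysomes was set against total RNA of the same strain. The comparison takes 4 of the 8 libraries of the series, 2 of polysome RNA and 2 of total RNA, and the 527 genes listed in the deposited count table by identifiers that start with SP. Each group of 2 is given as biological replicates. The WT strain is yAS99, and the other 4 libraries are the same pair of fractions from slr1- cells, labelled KO, which lack Slr1p, the homolog of the RNA-binding protein LARP1. Cultures of both strains grew in YES medium, a rich yeast extract medium, at 32 °C, and both received 100 µg/mL cycloheximide, so no library shows cells without the drug. The labels do not state which gradient fractions were pooled as polysome RNA, or how cells were lysed.

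An mRNA that is being translated usually carries several ribosomes at once, and cycloheximide, which blocks elongation, holds them in place while the lysate is spread on a gradient. RNA from the heavy part of the gradient is then sequenced beside total RNA. The ratio of the 2 levels is a relative measure: it says where an mRNA lies in the ranking of polysome association, not how many ribosomes it carries. Longer coding regions have room for more ribosomes, and mRNAs of secreted and membrane proteins are translated on ribosomes attached to the endoplasmic reticulum (ER).

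The 527 genes are a selection from a longer table by a rule that is not stated. The columns beside the counts are comparisons between the strains in these same libraries, and whether they decided the selection is not known, so shares of called genes hold for the listed genes and not for the transcriptome. The listed counts summed to 802359 and 792679 in WT total RNA and to 566241 and 550490 in WT polysome RNA; these sums are not the depth of the libraries. The lowest count of any listed gene in a WT library was 42. Between replicates the log2 values of genes differed with an SD of 0.29 in WT total RNA and 0.16 in WT polysome RNA, well above counting noise. The slr1 transcript was not analysed here, and the strain labels were not checked against it.

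Of the 527 genes, 262 (49.7%) differed between WT polysome and WT total RNA in edgeR's quasi-likelihood test after Benjamini-Hochberg adjustment over all listed genes, at a threshold of 0.05. The polysome level was higher for 110 genes (20.9%) and lower for 152 (28.8%), and in all 262 the 2 polysome libraries lay outside the range of the 2 total RNA libraries. That lack of overlap was common: 204 genes (38.7%) had both polysome values above both total values and 197 (37.4%) had them below. The distribution was lopsided. The median log2 ratio of polysome to total RNA was 0.01, the interquartile range ran from -0.48 to 0.32, the lowest gene was at -4.56 and the highest at 1.24. A difference of at least 2-fold past the threshold was reached by 9 genes (1.71%) upward and by 67 (12.7%) downward. The split of the calls depends on the scale: with library sizes alone, which set the median gene at 0.33, 246 genes were higher and 104 lower. Without replicate 1 of polysome RNA 163 genes passed, 42 higher and 121 lower.

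**Figure D1:**
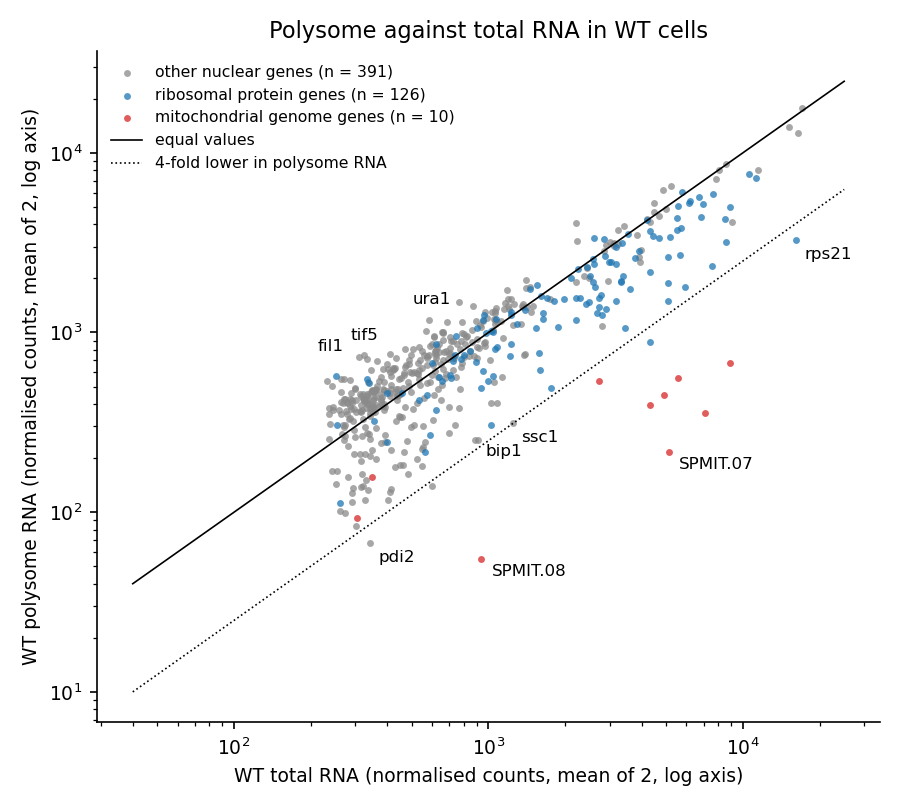
Normalised counts of 527 genes in WT polysome RNA (vertical, log axis) against WT total RNA (horizontal, log axis), each point the mean of 2 libraries. Genes of the mitochondrial genome lie far below the line of equal values, ribosomal protein genes mostly below it and most of the other nuclear genes around or above it.

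The lowest ratios were those of the mitochondrial genome. All 10 listed genes with the prefix SPMIT, which marks that genome and which the reference used here does not name, were lower in polysome RNA, with a median log2 ratio of -3.45 and a range from -4.56 to -1.15. Among all genes 28.8% were lower. Messages of the mitochondrial genome are translated inside the organelle by mitochondrial ribosomes, separate from the cytosolic polysomes. Together the 10 genes held 4.52% and 5.63% of the listed counts in total RNA and 0.52% and 0.58% in polysome RNA. The level of SPMIT.07 was 4106 and 6104 normalised counts in the total RNA libraries and 215 and 218 in the polysome libraries, which is 23.6-fold lower (log2 -4.56 ± 0.21, SE of the fit with 2 libraries in each group). SPMIT.10 had 6961 and 7247 in total RNA against 358 in both polysome libraries (19.9-fold lower, log2 -4.31 ± 0.12), and SPMIT.08 had 627 and 1245 against 61 and 49 (log2 -4.09 ± 0.39). The polysome replicates of each gene lay close together and far from the total RNA values, although the total RNA replicates of SPMIT.07 and SPMIT.08 themselves differed widely. The next in size were SPMIT.11 (-3.72), SPMIT.04 (-3.46), SPMIT.05 (-3.44), SPMIT.06 (-3.31) and SPMIT.01 (-2.33). The genes nearest to the nuclear ones were SPMIT.02 at -1.71 ± 0.32 and SPMIT.03 at -1.15 ± 0.28. All 10 passed in each fit that left out 1 WT library. In slr1- cells the median was -3.56.

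Among nuclear genes the lowest group was that of protein folding in the ER. The 4 listed genes are pdi2 and pdi1, protein disulfide isomerases, bip1, the Hsp70 chaperone of the ER lumen, and cnx1, the membrane chaperone calnexin. All 4 were lower in polysome RNA, against 28.8% of all genes, with a median log2 ratio of -1.71. Like the other lists, this one was chosen with earlier results of these data known. The pdi2 level was 328 and 355 normalised counts in total RNA and 66 and 68 in polysome RNA, 5.07-fold lower (-2.34 ± 0.22; edgeR adjusted p = 1.46e-05). It was the lowest nuclear gene of the table. The bip1 values were 968 and 805 in total RNA against 251 and 256 in polysome RNA (3.50-fold lower, -1.81 ± 0.20), and those of cnx1 were 472 and 355 against 146 and 124 (-1.61 ± 0.22). For pdi1 the values were 264 and 240 against 150 and 139 (-0.81 ± 0.22). The pdi1 call was the least firm of the 4: it was lost with library sizes alone (-0.49) and without replicate 1 of total RNA (-0.74), replicate 1 of polysome RNA (-0.86) or replicate 2 of polysome RNA (-0.74). In slr1- cells the median of the 4 genes was -1.43.

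Of 11 genes of mitochondrial chaperones and import, 5 were lower (45.5%, against 28.8% of all genes) and none was higher (median -0.27). ssc1, the mitochondrial Hsp70, had 1409 and 1086 normalised counts in total RNA and 309 and 317 in polysome RNA (3.98-fold lower, -1.99 ± 0.16). mcp60, the mitochondrial chaperonin, was at -0.98 ± 0.18, and tom5, a small subunit of the outer membrane translocase, at -1.37 ± 0.20. Without replicate 2 of total RNA, or either polysome library, 3 of the 11 genes passed. Of 16 genes of respiration, 5 were lower (31.2%) and 2 higher (12.5%), shares near the 28.8% and 20.9% of all genes (median -0.12). The lower ones included sdh1, the flavoprotein subunit of succinate dehydrogenase (525 and 438 against 168 and 160; -1.56 ± 0.19), atp2 (-1.33 ± 0.14) and atp1 (-0.96 ± 0.17), the catalytic and regulatory subunits of the ATP synthase head. The higher ones were cox5 (0.57 ± 0.16) and cyc1, cytochrome c (0.53 ± 0.15), and both calls were lost without replicate 1 of total RNA (0.48 and 0.44) or replicate 2 of polysome RNA (0.49 and 0.52). Of 6 genes listed with the tricarboxylic acid cycle 4 were lower (66.7%), among them the pyruvate dehydrogenase gene pda1 (471 and 427 against 186 and 181; -1.29 ± 0.15) and mae1, a malate permease of the plasma membrane (-0.87 ± 0.16). Among genes of at least 500 counts the respiration and cycle lists had 1 and 0 lower calls.

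Of 34 genes of amino acid synthesis, 10 were higher (29.4%) and 6 lower (17.6%), with a median of 0.29. In all genes the shares were 20.9% and 28.8%. The lower genes included ilv3, dihydroxy-acid dehydratase (905 and 915 against 259 and 244; 3.62-fold lower, -1.85 ± 0.16), ilv1, the catalytic subunit of acetolactate synthase (361 and 292 against 126 and 109; -1.47 ± 0.21), and arg1, acetylornithine aminotransferase (-1.34 ± 0.14). The budding yeast counterparts of these 3 enzymes are mitochondrial. The higher genes named by the same rule were ser1, phosphoserine aminotransferase (0.65 ± 0.21), lys4, homocitrate synthase (0.59 ± 0.14), and lys3, a saccharopine dehydrogenase (0.59 ± 0.14). These upward calls rest on few libraries: without replicate 1 of polysome RNA none of the 34 genes was called higher (ser1 0.55, lys4 0.50, lys3 0.57), and without replicate 2 of total RNA 3 were (ser1 0.42). The 6 downward calls did not shrink in any of these fits, which gave 6 or 7. In purine and pyrimidine synthesis 4 of 15 genes were higher (26.7%), led by ura1, whose product carries out the opening steps of pyrimidine synthesis (654 and 514 against 972 and 1368; 1.00 ± 0.22). The 1 lower gene, ura3, encodes the dihydroorotate dehydrogenase that the reference places in mitochondria (-0.74 ± 0.17), and its call was lost with library sizes alone (-0.42) and without replicate 1 of polysome RNA (-0.65). The count of higher genes in this list was 1 without replicate 2 of total RNA or without either polysome library.

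Of 9 plasma membrane and cell wall genes 5 were lower (55.6%, against 28.8% of all genes; median -0.55), including gas2 (490 and 434 against 181 and 184; -1.34 ± 0.16) and gas1 (-0.89 ± 0.15), enzymes that remodel cell wall glucan. The 1 higher gene was pil1, a cytosolic lipid-binding protein of eisosomes that coats the membrane from inside (867 and 870 against 1242 and 1577; 0.70 ± 0.13). With library sizes alone 2 of the 9 were lower, and without replicate 1 of polysome RNA 3 were. Of 8 ergosterol genes 2 were lower (against 28.8% of all genes), erg5 (414 and 408 against 125 and 134; -1.67 ± 0.18) and erg25 (-1.19 ± 0.19), both oxidising enzymes of the pathway. The other 6 genes, erg9 and erg28 among them, had ratios above 0. The 1 higher gene, erg6 (0.41 ± 0.14), lost its call whenever a WT library was left out (0.41 to 0.44).

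The first 25 codons show what the low ER and mitochondrial groups carry at the start of the protein. They were read from the RefSeq sequence of assembly ASM294v3, with introns removed, 5′ to 3′ on the coding strand. For the 4 ER genes, all on chromosome I, capitals mark codons of the hydrophobic residues Leu, Ile, Val, Phe, Met, Trp, Ala and Cys. These are 19 of 25 codons in pdi2, 17 in bip1, 12 in cnx1 and 16 in pdi1. Signal sequences for the ER are rich in such residues. The genes are pdi2 at chrI:2029143-2030386 (minus strand), bip1 at chrI:1182693-1185485 (minus strand), cnx1 at chrI:2086393-2088324 (minus strand) and pdi1 at chrI:291979-293805 (minus strand).
pdi2: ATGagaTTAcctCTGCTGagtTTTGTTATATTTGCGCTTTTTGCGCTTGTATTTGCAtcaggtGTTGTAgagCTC
bip1: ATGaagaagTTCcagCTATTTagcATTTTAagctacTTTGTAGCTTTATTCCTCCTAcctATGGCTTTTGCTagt
cnx1: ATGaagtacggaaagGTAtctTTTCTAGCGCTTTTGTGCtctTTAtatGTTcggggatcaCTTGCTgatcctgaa
pdi1: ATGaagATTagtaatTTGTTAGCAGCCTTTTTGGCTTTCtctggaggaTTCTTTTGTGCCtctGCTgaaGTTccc

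For ssc1, ilv3 and sdh1 on chromosome I and ilv1 on chromosome II, capitals mark codons of the basic residues Arg and Lys. The first 20 residues of each hold 3 to 5 of them and no acidic residue, as in many targeting sequences for the mitochondrial matrix. The genes are ssc1 at chrI:1725752-1728189 (plus strand), ilv3 at chrI:2351150-2353374 (minus strand), sdh1 at chrI:3796280-3798462 (minus strand) and ilv1 at chrII:977109-979390 (plus strand).
ssc1: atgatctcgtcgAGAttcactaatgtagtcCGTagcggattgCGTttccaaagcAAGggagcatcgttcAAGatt
ilv3: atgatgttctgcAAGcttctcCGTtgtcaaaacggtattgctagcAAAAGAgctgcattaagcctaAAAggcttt
sdh1: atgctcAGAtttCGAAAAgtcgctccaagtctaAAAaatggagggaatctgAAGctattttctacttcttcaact
ilv1: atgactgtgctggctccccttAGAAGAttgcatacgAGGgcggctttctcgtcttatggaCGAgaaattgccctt

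The 4 genes with the highest ratios are shown for comparison, with hydrophobic codons in capitals. By counts of such codons and of charged residues they do not part cleanly from the low groups. The hydrophobic codons number 8 in tif5, 8 in fil1, 13 in pac2, more than in cnx1, and 7 in rpl3402. The first 20 residues of tif5, fil1 and pac2 hold 2 acidic residues each, beside 5 basic ones in tif5, 0 in fil1 and 1 in pac2. Those of rpl3402 hold 6 basic and 0 acidic residues, which is a basic start at a high ratio. The genes are tif5 at chrI:539919-541598 (minus strand), fil1 at chrIII:811690-814708 (plus strand), pac2 at chrI:3006138-3006845 (plus strand) and rpl3402 at chrIII:1321348-1322217 (plus strand).
tif5: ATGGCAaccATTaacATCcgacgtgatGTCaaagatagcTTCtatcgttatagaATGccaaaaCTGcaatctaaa
fil1: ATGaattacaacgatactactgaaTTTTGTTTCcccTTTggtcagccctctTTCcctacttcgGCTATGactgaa
pac2: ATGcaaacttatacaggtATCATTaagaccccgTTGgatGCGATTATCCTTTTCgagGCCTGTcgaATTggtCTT
rpl3402: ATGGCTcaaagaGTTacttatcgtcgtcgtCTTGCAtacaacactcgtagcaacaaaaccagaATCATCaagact

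These features were then read in all 389 matched nuclear genes outside the ribosomal proteins. The classes were set after the values had been seen, so their counts are a description and carry no test. A protein was put in the hydrophobic class when some window of 19 residues had a mean Kyte-Doolittle hydropathy of at least 1.6, and otherwise in the basic-start class when its first 20 residues held at least 3 Arg or Lys and no Asp or Glu. The highest window of the whole protein was at 2.689 in pdi2, 2.195 in bip1, 2.468 in cnx1 and 1.705 in pdi1. It was at 1.363 in tif5, 0.853 in fil1, 1.3 in pac2 and 0.747 in rpl3402, all below 1.6. Of all 389 genes 18.5% were called lower. The 85 genes of the hydrophobic class had 28 lower (32.9%) and 15 higher, the 35 genes of the basic-start class 17 lower (48.6%) and 7 higher, and the 269 genes with neither feature 27 lower and 81 higher (30.1%). The median log2 ratios were 0.03, -0.41 and 0.21. Where the hydrophobic window lay in the first 60 residues, 14 of 27 genes were lower (51.9%) and 2 higher. Among genes with a coding length of at least 954 nt, where short genes are left out, 14 of 21 with a basic start were lower (66.7%, median -0.96), 15 of 53 of the hydrophobic class (28.3%), and 7 of 159 with neither feature (4.4%, median 0.29). Among genes of at least 500 counts the basic-start class had 6 lower and 6 higher. With library sizes alone it had 16 lower and 12 higher, the hydrophobic class 17 and 33, and the class with neither 17 and 175. The ribosomal protein genes did not part in this way: 22 of 41 with a basic start were lower (53.7%) and 45 of 79 with neither feature (57.0%). In slr1- cells the medians of the classes kept their order, at 0.14, -0.29 and 0.40. What part the destination of the protein has in these ratios was not tested.

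**Figure D2:**
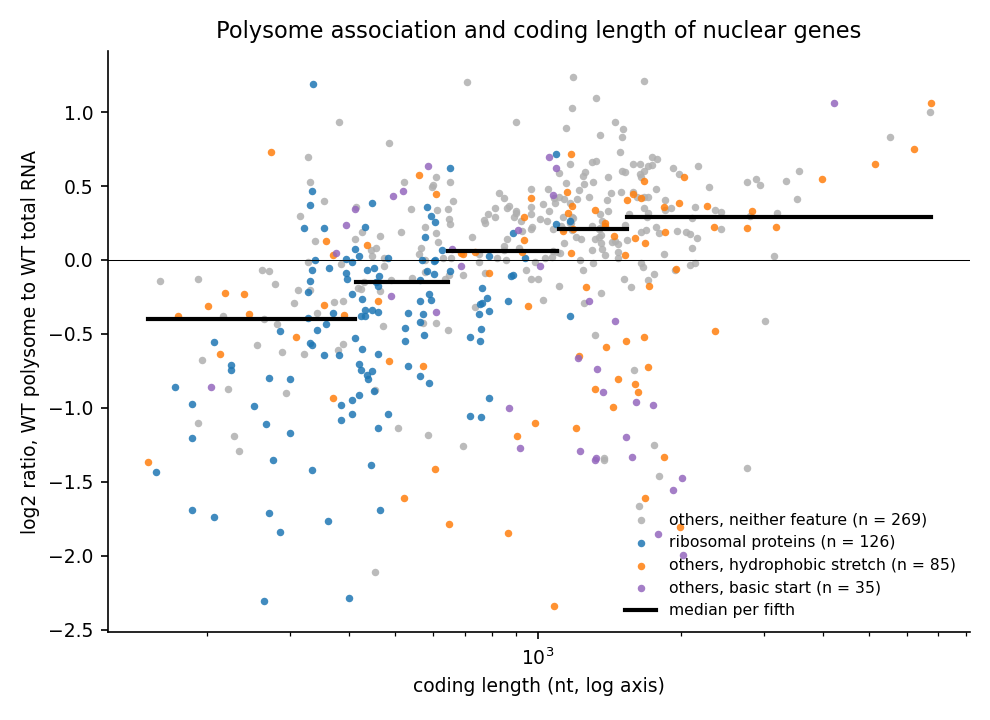
Log2 ratio of WT polysome to WT total RNA (vertical) against coding length in nt (horizontal, log axis) for 515 nuclear genes, coloured by ribosomal protein genes and by the protein classes of the others. Black bars are medians of 5 equal bins of genes by length and climb from -0.40 to 0.29, while the low points at long coding lengths are mostly genes of the basic-start and hydrophobic classes.

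Short coding regions had low ratios. Over the 515 matched genes, Spearman's correlation across genes between the log2 ratio and coding length was 0.41, and replicate by replicate it was 0.29 and 0.47. Genes are not independent replicates, and the points share their libraries. In 5 bins of 103 genes by coding length the median log2 ratio was -0.40, -0.15, 0.06, 0.21 and 0.29 from the shortest to the longest. The number of genes called lower was 53, 36, 18, 17 and 18, and the number called higher was 8, 13, 21, 31 and 37. Ribosomal protein genes made up 51 genes of each of the 2 shortest bins, but the correlation was 0.41 within them and 0.28 in the other 389 nuclear genes. The last value differed between replicates, at 0.10 and 0.37. Within the class with neither protein feature it was 0.39 (0.21 and 0.49 by replicate), and within the basic-start class it was -0.56, over 35 genes. The 3 longest listed proteins were all called higher: cut6, the acetyl-CoA carboxylase (291 and 193 against 425 and 587; 1.06 ± 0.27), ura1 (1.00 ± 0.22, above) and fas1, a fatty acid synthase subunit (463 and 334 against 541 and 799; 0.75 ± 0.27). In all 3 the polysome values lay above the total RNA values, but the replicates were far apart. The cut6 call was lost without replicate 2 of total RNA (0.80), and that of fas1 without replicate 2 of total RNA (0.53) or of polysome RNA (0.46) and with factors computed without ribosomal protein genes (0.64). Of the 3 shortest, tom5 (-1.37) and rpl39 (6537 and 10636 against 2639 and 3730; -1.43 ± 0.26) were lower, and tom7 did not pass (-0.14 ± 0.13).

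Other features of the transcript were set beside the ratio in the same way. The correlation with the length of the annotated 5′ untranslated region (UTR) was 0.29 over all matched genes, 0.51 in the ribosomal protein genes and 0.09 in the other nuclear genes. With the number of introns it was -0.09. With the level in total RNA per kb of transcript it was -0.47, but that level is also the denominator of the ratio. An A at the third base before the start codon, the base that favours initiation most strongly in many eukaryotes, was present in 79.6% of the genes called higher, 86.0% of those called lower and 82.1% of all matched genes with such a base annotated. In the reference as a whole it was 61.5%.

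Ribosomal protein genes were the largest group among the lower genes. Of 126 listed genes 70 were lower in polysome RNA (55.6%), 7 higher (5.56%) and 49 did not pass. Among all genes 28.8% were lower and 20.9% higher. The median log2 ratio was -0.37, against 0.14 for the 391 genes that are neither ribosomal protein nor mitochondrial genome genes. Of those 391 genes 18.4% were lower and 26.3% higher. The groups differ in coding length, with a median of 436.5 nt in the ribosomal protein genes and 1137 nt in the 391. The 78 shortest matched nuclear genes outside the ribosomal proteins, of 150 to 522 nt, had a median log2 ratio of -0.21, with 23 lower and 9 higher. What part length has in the gap was not tested. The ribosomal protein genes held 45.5% and 45.3% of the listed counts in total RNA and 38.1% and 38.3% in polysome RNA. In the small subunit 33 of 52 were lower (63.5%) and none was higher (median -0.51). In the large subunit 35 of 67 were lower (52.2%) and 5 higher (7.46%), at a median of -0.34. The most abundant of the low ones was rps21, of the small subunit, with 17369 and 14877 normalised counts in total RNA and 3237 and 3267 in polysome RNA (4.96-fold lower, -2.31 ± 0.15; edgeR adjusted p = 1.18e-06). rpl29 was at -1.69 ± 0.16. At the other end rpl3402, 1 of 2 genes of the large subunit protein L34, was higher (273 and 230 against 603 and 543; 1.19 ± 0.18), and so were rpl401 (0.72 ± 0.17) and rpl102 (0.62 ± 0.16). The rpl102 call was lost without replicate 1 of polysome RNA (0.58), a fit in which 2 of the 126 genes were called higher. With library sizes alone 44 of the 126 were lower and 26 higher, at a median of -0.06, while the median of all genes rose to 0.33.

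The stalk proteins, the acidic P proteins that recruit elongation factors to the large subunit, had 2 of 7 genes higher and 2 lower (28.6% each, against 20.9% and 28.8% of all genes). The genes rpp103 (0.37 ± 0.11) and rpp203 (0.47 ± 0.15) were higher, and rpp202 (3610 and 6556 against 2452 and 1336; -1.42 ± 0.34) and rpp102 (-0.58 ± 0.12) were lower. In rpp202 the replicates lay far apart in both fractions. The rpp202 call was lost without replicate 2 of total RNA (-0.93), both upward calls without replicate 1 of total RNA (0.34 and 0.42) or replicate 1 of polysome RNA (0.32 and 0.38) and with factors computed without ribosomal protein genes (0.27 and 0.37), and that of rpp103 also without replicate 2 of polysome RNA (0.44). The rpp102 call was lost with library sizes alone (-0.26). Genes for fusions of ubiquitin with a ribosomal protein resembled the ribosomal protein genes, with 3 of 4 lower. Both S31 fusions were lower, ubi5 (636 and 567 against 129 and 149; -2.11 ± 0.16) more than ubi3 (-0.88 ± 0.11). Of the L40 fusions ubi1 was lower (-0.57 ± 0.11) and ubi2 did not pass (-0.28 ± 0.13). With library sizes alone ubi1 did not pass either (-0.25).

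Copies of the same ribosomal protein gene often parted. Most fission yeast ribosomal proteins are encoded by more than 1 gene, with nearly identical proteins and different flanking sequence, and 45 such families had at least 2 listed copies. The highest and lowest copies of a family differed by a median of 0.57 in log2 ratio, by at least 1 in 10 families and by less than 0.5 in 20. Reads of 50 bp from near-identical coding regions can be divided between copies in an uncertain way, so these values are uncertain for each copy. In a wide gap, rps1502 had 3738 and 3126 normalised counts in total RNA and 1079 and 1044 in polysome RNA (3.23-fold lower, -1.69 ± 0.13), while rps1501 had 2726 and 2998 against 2581 and 2725 (-0.11 ± 0.11). The fractions lay far apart in rps1502 and close together in rps1501, which did not pass. Similar gaps separated rps2602 (-1.77 ± 0.12) from rps2601 (-0.06 ± 0.11) and rpl4302 (-1.84 ± 0.17) from rpl4301 (-0.48 ± 0.14). In rpl34 the gap was upward, with rpl3401 at 0.00 ± 0.10 and rpl3402 at 1.19 ± 0.18. In 32 families the copy with the higher ratio had the longer annotated 5′ UTR, in 11 the shorter and in 2 an equal one. The annotated 5′ UTR was 18 nt in rps1502 and 38 nt in rps1501, and 31 nt in rpl3401 and 239 nt in rpl3402. Annotated starts may be incomplete, and a length of 0, as in rps21, is an annotation and not a measurement.

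**Figure D3:**
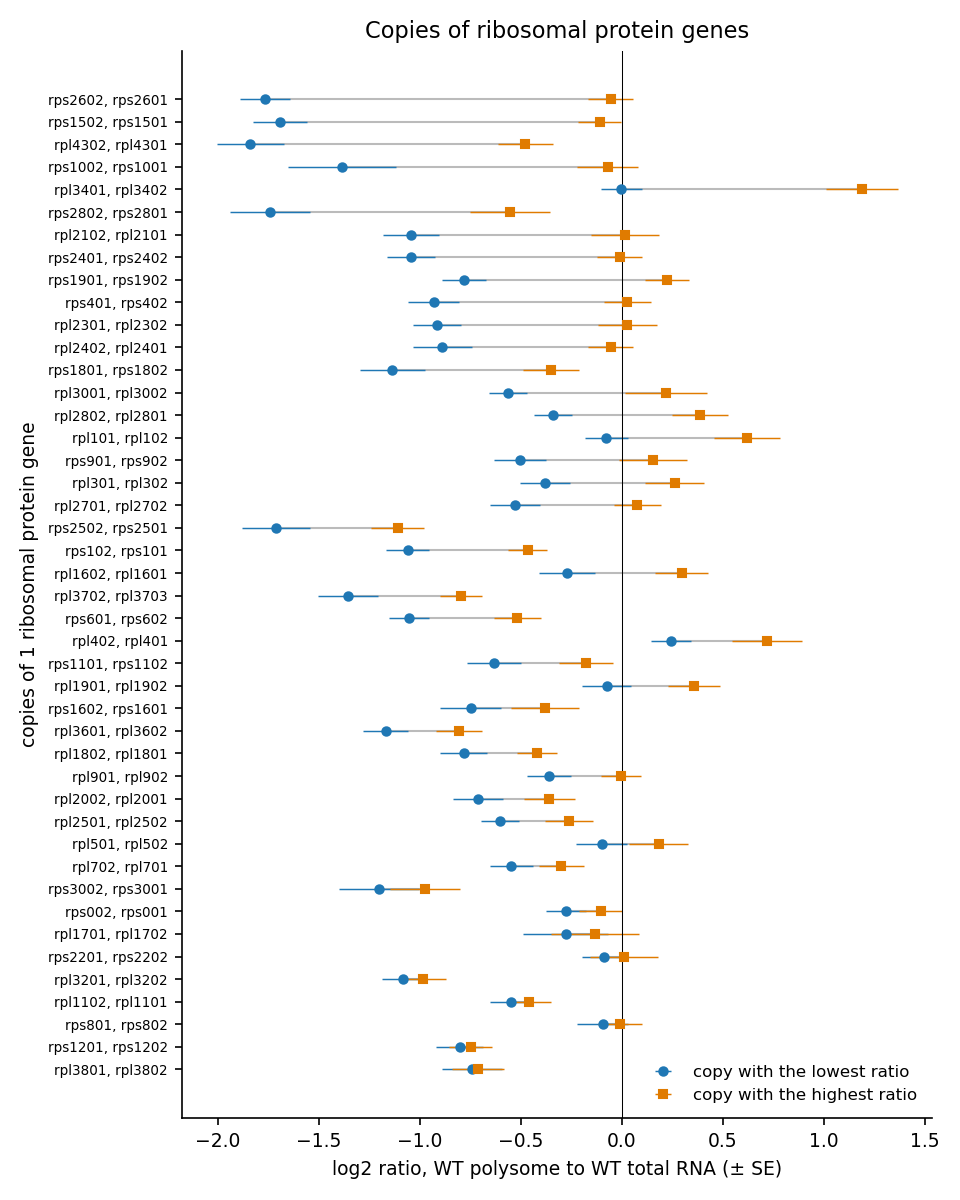
Log2 ratio of WT polysome to WT total RNA (horizontal, ± SE) for the lowest (circles) and highest (squares) listed copy in 44 of the 45 families of ribosomal protein genes, 1 family per line. Families are sorted by the gap, which runs from 1.71 between rps2602 and rps2601 to 0.03 between rpl3801 and rpl3802.

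The 10 genes with the highest ratios included 3 transcription regulators and 2 initiation factor genes, beside cut6, ura1, rpl3402 and a pair of histone-related genes. First was tif5, the gene of initiation factor eIF5, which acts in start codon selection, with 335 and 286 normalised counts in total RNA and 794 and 669 in polysome RNA (2.36-fold higher, 1.24 ± 0.18; edgeR adjusted p = 0.000281). The regulator genes fil1, pac2 and sfp1 were grouped with their high ratios known, so that all of them are high is not a result. Of other genes with a part in transcription tbp1, the TATA-binding protein, was at 0.04 ± 0.15 and mbf1 at 0.03 ± 0.13, a pair named after their values were seen, and neither passed. fil1, a GATA-type factor that activates amino acid synthesis genes in fission yeast, had 348 and 298 against 683 and 814 (2.32-fold, 1.21 ± 0.18). pac2, a regulator of sexual differentiation, had 258 and 205 against 510 and 559 (1.21 ± 0.17), and sfp1, a transcription factor whose budding yeast namesake regulates ribosome production, had 324 and 341 against 694 and 731 (1.10 ± 0.16). In these 4 genes each polysome value was above both total RNA values with room to spare, and all 4 calls held in each fit that left out a WT library. The fil1 message has an annotated 5′ UTR of 965 nt with 6 upstream ATG triplets, and tif5 has 2 in 286 nt. Upstream start codons often lower the translation of the main coding region, but reads of the whole message on polysomes do not tell which reading frame the ribosomes occupy. Among the 16 listed genes with an upstream ATG 3 were higher and 2 lower (median 0.21). Among the 499 without one 107 were higher and 140 lower (median 0.015), and among all genes 20.9% were higher and 28.8% lower. Outside the ribosomal proteins the medians were 0.22 with an upstream ATG and 0.14 without. Whether upstream ATGs bear on the ratio was not tested.

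**Figure D4:**
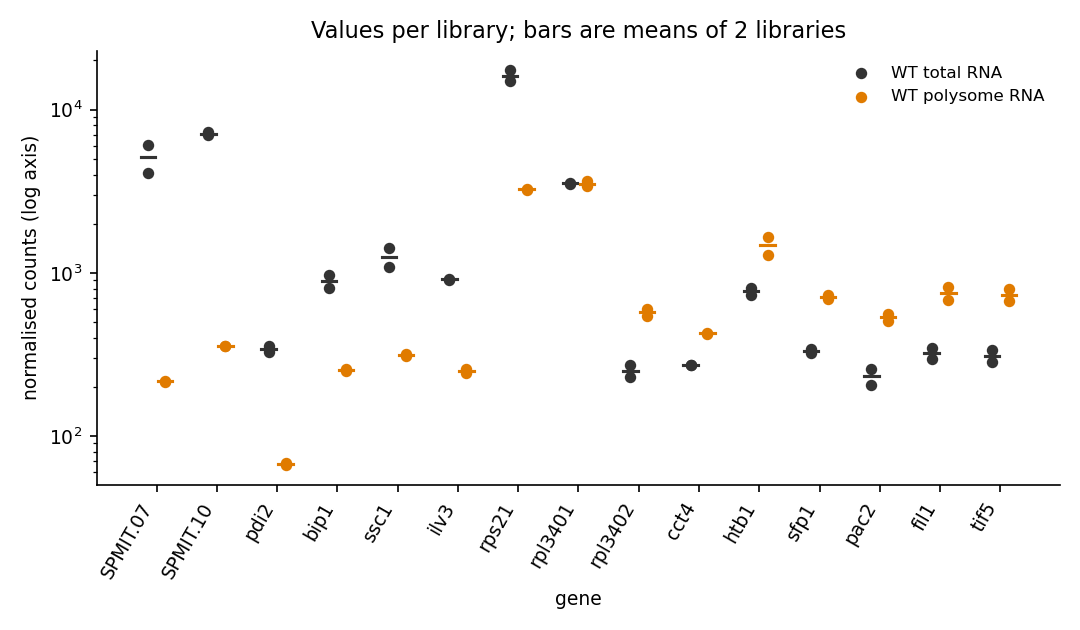
Normalised counts (log axis) of 15 example genes in each WT library, black for total RNA and orange for polysome RNA, with bars at the mean of 2. The fractions separate without overlap for each gene drawn except rpl3401, whose total RNA values lie between those of the polysome libraries.

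Initiation factor genes held upward calls and no downward ones, where 20.9% of all genes were higher and 28.8% lower. Of the 10 genes of eIF3, the complex that brings the small subunit to the message, 4 were higher and none lower (median 0.31), among them tif302 (626 and 598 against 924 and 977; 0.63 ± 0.13) and int6 (0.60 ± 0.14). Without replicate 2 of polysome RNA 2 passed. tif471, the gene of the scaffold protein eIF4G, had 269 and 259 against 498 and 603 (1.06 ± 0.24) and was the only 1 of 5 genes of cap binding and poly(A) binding past the threshold. Of 5 other initiation factor genes only tif5 passed, a share in both lists near that of all genes, while tif11 (-0.19 ± 0.12) and sui1 (-0.21 ± 0.10) had ratios below 0 and did not pass. Of 5 elongation and termination genes sup35, the release factor eRF3, was higher (0.58 ± 0.16) and tef5, an exchange factor subunit for eEF1, was lower (-0.48 ± 0.10). The sup35 call was lost without replicate 2 of total RNA (0.49) or replicate 1 of polysome RNA (0.59), and that of tef5 with library sizes alone (-0.16). Of 14 aminoacyl-tRNA synthetase genes 4 were higher (28.6%) and none lower (median 0.32). None passed without replicate 2 of total RNA or replicate 1 of polysome RNA, and 1 without replicate 2 of polysome RNA.

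Ribosome biogenesis genes were mostly higher, with 8 of 14 higher (57.1%) and 3 lower (21.4%), at a median of 0.51. Among all genes 20.9% were higher and 28.8% lower. gar2, the nucleolin homolog, had 603 and 535 against 937 and 1094 (0.84 ± 0.15), and nop56, a core protein of box C/D particles, had 667 and 707 against 1135 and 1141 (0.73 ± 0.17). fib1, fibrillarin, the methyltransferase of the particles that hold Nop56, was lower (778 and 700 against 315 and 296; -1.27 ± 0.25), as was snu13 (-0.61 ± 0.11), which binds the RNA of those particles. Without replicate 1 of polysome RNA 4 were higher and 2 lower, and without replicate 1 of total RNA 5 were higher and 5 lower. Of 4 listed subunits of RNA polymerases I and III rpa43 was lower (472 and 627 against 181 and 178; -1.61 ± 0.21). sla1, the homolog of the La protein that binds the ends of new polymerase III transcripts, was higher (308 and 419 against 706 and 682; 0.93 ± 0.23), a call lost without replicate 1 of total RNA (0.73). lsm6, of the ring that binds U6 RNA, was lower (-1.19 ± 0.20).

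All 7 listed subunits of the chaperonin CCT, which folds actin and tubulin in the cytosol, were higher, within a narrow range from 0.43 to 0.65. Among all genes 20.9% were higher and 28.8% lower. The higher share was 44.4% in the cytosolic chaperones below and 28.6% in the cytoskeleton list, which is near that of all genes. cct4 had 271 in both total RNA libraries and 420 and 430 in polysome RNA (0.65 ± 0.17), and cct8 had 335 and 338 against 518 and 537 (0.65 ± 0.16). The size is near the limit of the design: 2 subunits passed without replicate 2 of total RNA or replicate 1 of polysome RNA, and 4 without either other WT library, with medians from 0.46 to 0.58. Of 9 cytosolic chaperone genes 4 were higher and none lower (median 0.28), led by zuo1, a ribosome-associated J protein (500 and 511 against 783 and 827; 0.67 ± 0.13). Leaving out replicate 2 of total RNA or either polysome library left 1, as did factors computed without ribosomal protein genes. On the same scale the medians of both cytosolic lists lay above 0 and that of the ER folding list at -1.71. nap1, the chaperone of histones H2A and H2B (303 and 237 against 579 and 522; 1.03 ± 0.19), and htb1, histone H2B itself (729 and 808 against 1291 and 1652; 0.94 ± 0.16), were higher. hht2, a histone H3 gene, was higher by less (0.34 ± 0.13), and its call was lost in each fit without 1 of the WT libraries (0.29 to 0.40), with DESeq2 (0.35) and with factors computed without ribosomal protein genes (0.24). Of 7 cytoskeleton genes 2 were higher, with cdc8, tropomyosin, at 0.79 ± 0.17 (407 and 530 against 818 and 804), and 1 passed when any WT library was left out.

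Abundant enzymes of central metabolism sat near the middle. Of 14 glycolysis and fermentation genes, which held 11.3% and 9.67% of the listed counts in total RNA and 12.9% and 12.4% in polysome RNA, 13 did not pass. Their median was 0.03 and their range from -0.51 to 0.33. The 1 called gene, adh1, alcohol dehydrogenase (5780 and 4657 against 6588 and 6556; 0.33 ± 0.12), lost its call without replicate 2 of total RNA (0.19) or either polysome library (0.33 and 0.36), and with factors computed without ribosomal protein genes (0.23). With library sizes alone 9 of the 14 were higher. The 170 genes in no list had 44 higher (25.9%) and 29 lower (17.1%), against 20.9% and 28.8% of all genes, with a median of 0.11.

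**Figure D5:**
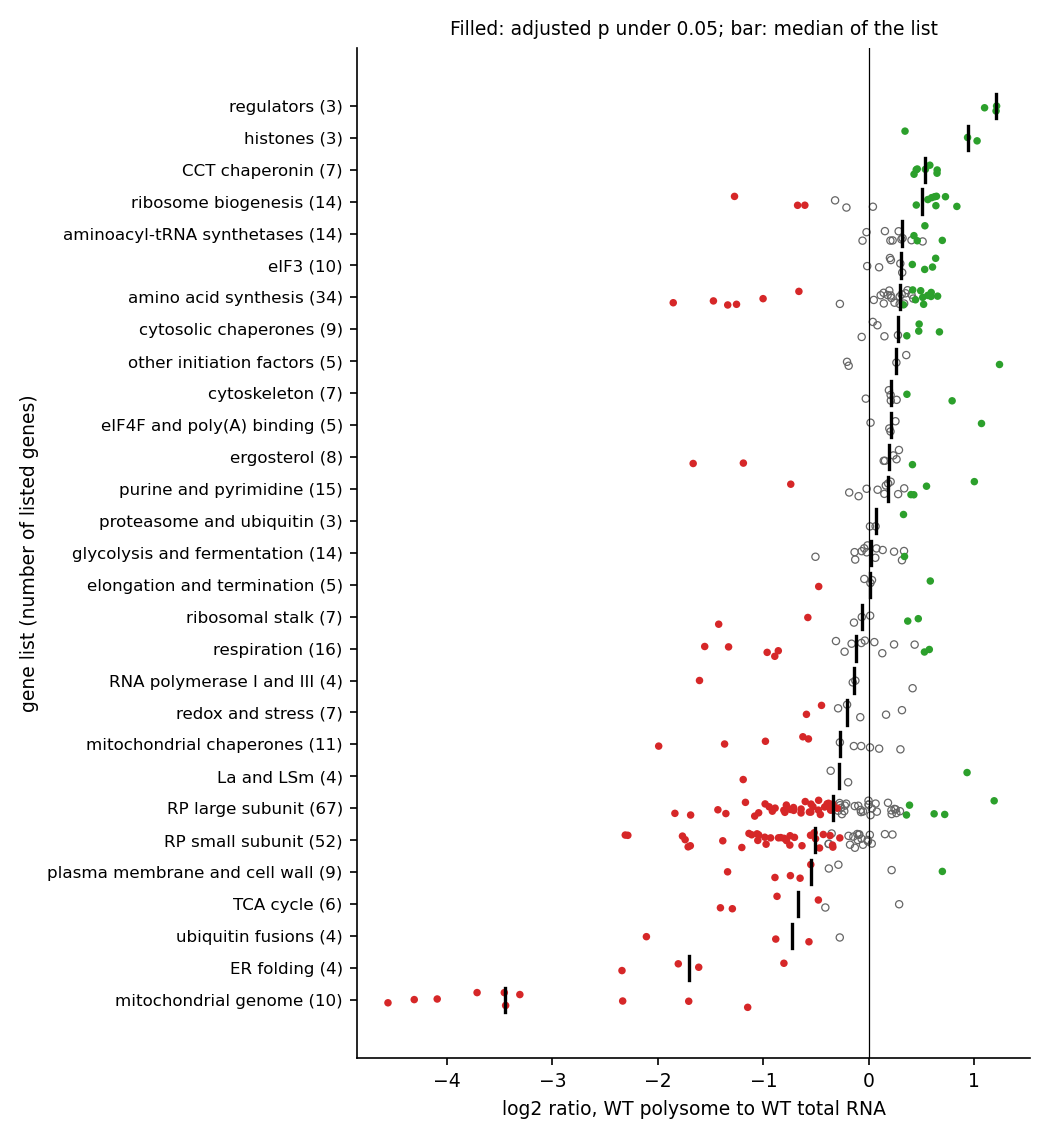
Log2 ratio of WT polysome to WT total RNA for each gene of the lists, sorted by the median of the list (black bar), with the number of listed genes in brackets. Filled points passed the threshold (green higher, red lower) and open points did not; the medians start at -3.45 for the mitochondrial genome, and the place of the 3 regulators at the top was fixed by how they were grouped.

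The pattern was set beside that of the slr1- cells, which share no library with WT but were scaled together with it. In slr1- cells 179 genes (34.0%) were higher and 162 (30.7%) lower in polysome RNA. Of the 110 genes higher in WT, 90 were called higher in slr1- and 5 had the opposite sign. Of the 152 lower in WT, 127 were called lower and 3 had the opposite sign. Across the 527 genes the log2 ratios of the strains had a Pearson correlation of 0.91 and a Spearman correlation of 0.87, and 0.88 and 0.87 without the mitochondrial genome genes. The ratio was farther from 0 in slr1- for 342 genes. The difference of the ratios between the strains was tested by the interaction: 2 genes (0.38%) passed after adjustment, and 140 (26.6%) had an unadjusted p under 0.05. SPMIT.10 was less depleted in WT (-4.31) than in slr1- (-5.32 ± 0.12), a difference of 1.01 ± 0.15. aha1, a co-chaperone of Hsp90, was at 0.28 ± 0.14 in WT and 1.44 ± 0.14 in slr1-, a difference of -1.17 ± 0.20. Neither call was firm: both were lost with limma-voom (adjusted p = 0.0508 for each), with factors computed without ribosomal protein genes (edgeR adjusted p = 0.0755 for each) and without replicate 1 of WT polysome RNA (differences of 1.01 and -1.22). That of aha1 was also lost without replicate 2 of WT polysome RNA (-1.01) and without mitochondrial genome genes (-1.12). The next smallest p-values, cts1 (-1.08 ± 0.21), rpl14 (0.74 ± 0.16) and tif302 (-0.95 ± 0.19), had an edgeR adjusted p of 0.0531 each and did not pass. The CCT subunits had a median of 0.54 in WT and 1.16 in slr1-, and the ribosomal protein genes -0.37 and -0.52; of these genes none passed the interaction.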

How the data were processed

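TRIzol-extracted RNA was cleared of ribosomal RNA, turned into stranded libraries and read as 50 bp single reads, per the labels' protocols. Bowtie and RSEM were used, per the submitters' processing notes, with versions, genome build, annotation and use of strand not given in the sources used here. As deposited by the authors, counts are whole numbers per gene and library with no normalisation. All 8 count columns were used. Per the file headers the table also holds the authors' log2 fold changes, p-values with false discovery rates, ratios of normalised values and a direction score, whose making is not stated and which were not used. Of 532 rows 527 name a gene, and 515 identifiers matched the reference assembly ASM294v3.

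The model was edgeR 4.0.16 in R 4.3.3, with TMM factors, 4 group means and all 8 libraries, which leaves 4 residual degrees of freedom. The common dispersion was 0.0127. Polysome was contrasted with total RNA by the two-sided quasi-likelihood test, adjusted by Benjamini-Hochberg over 527 genes. No gene was filtered. SE is the absolute log2 ratio over the square root of F. Normalised counts are counts over the effective library size times its mean. With 2 replicates a group, the spread between them sets the error. In simulated data 63.4% of genes changed by 0.5 in log2 were called, 100% of those changed by 1, and 0.6% of unchanged genes.

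Genes were named by a rule: the 10 highest and 10 lowest past the threshold, up to 3 per list and direction, the 3 shortest and longest proteins and the 5 smallest interaction p-values. Some list members whose call was lost without 1 library are only counted, and some items are not reported here. The members and lists were chosen with earlier results of these data known. Alternatives were DESeq2 1.42.0, limma-voom (limma 3.58.1), other scale factors, WT libraries only, a minimum of 500 counts, omission of mitochondrial genome genes, a replicate block and omission of each WT library.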

Additional observations from a re-analysis of the deposited data

Results flagged for a closer look

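In 2 genes the ratio of polysome to total RNA differed between WT and slr1- cells by a test of the difference itself (edgeR interaction, adjusted over 527 genes). For SPMIT.10, of the mitochondrial genome, the difference was 1.01 in log2 (WT minus slr1-; edgeR adjusted p = 0.0221), with 358 in both WT polysome libraries and 256 and 257 in the slr1- ones, against 6961 and 7247 and then 10920 and 9613 normalised counts in total RNA. For aha1, a co-chaperone gene, it was -1.17 (edgeR adjusted p = 0.0353), with 406 and 347 in WT total RNA, 472 and 440 in WT polysome RNA, 247 and 266 in slr1- total RNA and 721 and 673 in slr1- polysome RNA. Both calls were lost with limma-voom (adjusted p = 0.0508 each), with factors computed without ribosomal protein genes (edgeR adjusted p = 0.0755 each) and without replicate 1 of WT polysome RNA (edgeR adjusted p = 0.0955 and 0.163), and that of aha1 also without replicate 2 of WT polysome RNA (edgeR adjusted p = 0.100) and without mitochondrial genome genes (edgeR adjusted p = 0.0532). Both are differences of ratios, and in both genes the total RNA values of the strains did not overlap. That strain difference in total RNA was not tested. Groups of 2 libraries are too small to look for a single library far from the others.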

How the results depend on the processing

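The count of 262 genes stayed between 245 and 350 under the other tools, scale factors, gene sets and the replicate block (277 genes, 119 higher and 158 lower), except that 160 of 312 genes passed among those of at least 500 counts. Without 1 WT library it was 163 to 228; the library left alone in its group was then assumed to vary like the others. The interaction count of 2 was less stable: 36 with DESeq2 (where 51 genes had no adjusted p), 0 with limma-voom (138 with an unadjusted p under 0.05), 0 with factors computed without ribosomal protein genes (140), 31 with library sizes alone, 13 among genes of at least 500 counts, 0 without mitochondrial genome genes (136), 46 with the replicate block, and 0 to 32 without 1 WT library. Same-numbered total and polysome libraries had correlated deviations (0.29 in WT, 0.07 in slr1-), but with 2 pairs the numbers do not show a shared culture. The correlation with coding length was 0.49 among genes of at least 500 counts and ranged from 0.30 to 0.47 without 1 WT library. Reversals were seen in 3 named genes that had not passed: ubi2 (0.04), rpl14 (0.085) and tom7 (0.17) with library sizes alone, and tom7 without replicate 2 of total RNA (0.008, in a range down to -0.277 without other libraries). The cause of these changes was not tested.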
